A study of Mus musculus with 4 samples.

Results

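The regions described here are stretches of the mouse cortex genome that were enriched in all 3 SOX2 immunoprecipitation libraries of the study and lay inside a long protein-coding gene, over 1 kb from either end of every protein-coding gene. A gene was called long when its annotated span was at least 200 kb. Of 27083 merged regions, 9334 held a peak of all 3 libraries, and 1540 of these (16.5%) met the rule and are called long-gene regions below. Of 21887 protein-coding genes, 990 were long, and 588 of them held at least 1 such region. The measurement was ChIP-seq, in which an antibody recovers the chromatin that a protein is attached to, and its DNA is sequenced and set against that of unselected chromatin, the input.

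The chromatin came from 0.3 g of cortex of wild-type C57BL/6 male mice aged 2 months, crosslinked with a long-arm reagent and then formaldehyde, and sheared to 200 to 600 bp. The single group pulled down with a rabbit antibody to SOX2 had 3 libraries (IP libraries 1 to 3), and the input had 1 library, whose values entered through columns beside each peak. In all 4 samples, also in the input, 1 label field gives SOX2 as transduced, although the tissue is described as wild type, and that field was set aside. Nothing in the labels says that the IP libraries came from separate animals, so their spread, and every test over them, may reflect technical variation only. The tissue was whole cortex and RNA was not measured in these samples, so a region cannot be tied to a cell type. The gene that holds a region need not be the gene that it acts on.

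SOX2 is a transcription factor of the SOX family, which binds short DNA motifs through an HMG box and often acts together with a partner factor such as a POU protein. It maintains neural stem cells, and in the adult brain it is made mainly by glia, astrocytes among them. Genes with very long spans are frequent among those that act in neural adhesion, synapses and brain development, and their introns can hold enhancers, short sequences at which transcription factors gather and act on promoters at a distance. No exon annotation was used here, so regions are placed along gene spans and not assigned to introns or exons.

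Sequences were at hand only where a region lay on a start site inside a long gene, because the RefSeq promoter table (build GRCm38.p6, whose coordinates are those of mm10) holds 300 bases around each listed start: 250 before it and 50 after. This is a small and particular subset. Of 1474 long-gene regions on the chromosomes that the table covers, 32 (2.17%) overlapped such a window, against 179 of 2524 regions inside shorter genes (7.09%) and 1176 of 1801 regions at gene ends (65.3%). In 21 of the 32 the start belonged to the gene that holds the region, so it was an alternative start, and in 11 only to another transcript. The strength of a region is expressed in normalized tags, that is, the sequenced tags of its peak after the authors scaled each library to 10000000. The mean over libraries of these 32 regions ran from 4.10 to 22.1 with a median of 8.54. The following 8 are the strongest that share at least 100 bases with a window before the start. They show what SOX2-enriched sequence at internal starts looks like. Each is the shared stretch read 5′ to 3′ on the strand of the transcript. Capitals mark a core SOX motif, ACAATG or ACAAAG, on either strand (CATTGT or CTTTGT when read from the other).
Prdm16 (start of Gm52688, chr4:154506811-154506913, plus strand): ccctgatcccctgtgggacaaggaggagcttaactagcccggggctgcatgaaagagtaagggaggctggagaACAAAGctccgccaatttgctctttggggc
Dock9 (start of Dock9, chr14:121698486-121698656, minus strand): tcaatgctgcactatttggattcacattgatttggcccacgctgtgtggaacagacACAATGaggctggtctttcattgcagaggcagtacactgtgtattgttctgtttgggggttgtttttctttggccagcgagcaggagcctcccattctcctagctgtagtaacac
Limch1 (start of Limch1, chr5:66968248-66968427, plus strand): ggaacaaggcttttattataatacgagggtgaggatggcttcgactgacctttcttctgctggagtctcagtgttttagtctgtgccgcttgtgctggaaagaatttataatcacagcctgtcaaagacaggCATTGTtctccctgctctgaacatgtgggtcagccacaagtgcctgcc
Sdk2 (start of Gm39468, chr11:113785924-113786042, plus strand): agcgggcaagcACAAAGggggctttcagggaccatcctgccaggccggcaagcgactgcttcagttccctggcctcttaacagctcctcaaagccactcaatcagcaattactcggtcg
Ank2 (start of Ank2, chr3:126998453-126998604, minus strand): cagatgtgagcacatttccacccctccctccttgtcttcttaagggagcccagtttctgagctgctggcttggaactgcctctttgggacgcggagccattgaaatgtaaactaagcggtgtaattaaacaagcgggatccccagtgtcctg
Hdac9 (start of Hdac9, chr12:34528890-34529046, minus strand): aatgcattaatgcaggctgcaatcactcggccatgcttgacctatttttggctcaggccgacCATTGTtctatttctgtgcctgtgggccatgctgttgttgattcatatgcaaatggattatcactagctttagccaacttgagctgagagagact
Prdm16 (start of Gm13133, chr4:154550141-154550281, plus strand): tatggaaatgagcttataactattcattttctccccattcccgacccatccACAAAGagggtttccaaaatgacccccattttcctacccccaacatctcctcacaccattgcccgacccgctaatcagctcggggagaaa
Tnrc6b (start of Tnrc6b, chr15:80798503-80798609, plus strand): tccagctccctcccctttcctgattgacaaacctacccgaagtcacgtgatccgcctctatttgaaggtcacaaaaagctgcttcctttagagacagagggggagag

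Of these sequences, 6 held 1 core SOX motif each and those in Ank2 and Tnrc6b held none. A match describes the letters only, and its absence says nothing about binding. Over whole windows, ACAATG was found in 7 of the 34 windows that long-gene regions touched (20.6%), against 12.6% of all 32851 windows in the table. ACAAAG was found in 4 of them (11.8%), against 18.7%. The POU motif ATGCAAAT was found in 2 (5.88%), against 1.74%, and 1 of these was the window in Hdac9, where it lies in lower case in the printed stretch. The short NFI motif TTGGCA was found in 4 (11.8%), against 14.1%. Both strands were searched, and each motif was counted on its own, also where matches of 2 motifs share bases. With 34 windows, a share moves by percentage points with each single window. The 32851 windows are those of all listed starts, not only internal ones, and were not matched to the 34 in position or base composition. Some windows were touched by few bases, 6 in Aopep, so a motif in a window need not lie in the region.

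The region at an internal start with the highest value lay inside Prdm16, a transcriptional regulator of neural stem cells and brown fat, at the start of the transcript Gm52688. It held 21.2, 22.8 and 22.4 normalized tags in IP libraries 1, 2 and 3 (22.1 ± 0.833, mean and SD, n = 3). The alternative start of Dock9, an activator of the small GTPase Cdc42, held 14.3, 14.2 and 13.9. Both sets of libraries were close together. In Limch1, an actin-binding protein gene, the values 16.5, 14.5 and 9.55 were wider apart, with library 3 the lowest. The start in Hdac9, a class IIa histone deacetylase gene, held 9.63, 12.9 and 9.79. The start of Kcnq1ot1, an imprinted RNA read against Kcnq1 and on the opposite strand, held 7.98, 4.92 and 5.01, with a mean below the median of the 32.

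Across all 1540 long-gene regions the mean strength ran from 3.89 to 44.1 normalized tags, with quartiles of 5.88 and 10.9 around a median of 7.82. The regions were 158 to 427 bp long, with a median of 203 bp. Library 3 gave the lowest of the 3 values in 924 regions and library 1 the highest in 719. In the 3 libraries together 34.5% of all merged regions recurred 3 times, and of the 4798 merged regions inside long genes 1540 did (32.1%), while 987 were found in 2 libraries and 2271 in only 1. The share inside long genes was thus near that of all regions, though the lowest of any position. It was 34.5% inside shorter genes, 33.2% at gene ends, 35.8% outside genes within 50 kb and 37.2% farther away. The libraries held 36330529, 32492927 and 41875666 tags. The authors' tag thresholds for a peak were 14, 13 and 16, which need not match the count behind the normalized tags. The weakest regions rested on few tags.

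Enrichment over the input was also ordinary for a recurring region. At least 8-fold in every library was reached by 899 long-gene regions (58.4%), against 60.2% of all recurring regions. In 107 long-gene regions the input was at its floor of 0.5 tags in all 3 libraries, so the fold there depends on that floor. Such regions were not counted among all recurring regions. Of the long-gene regions, 146 (9.48%) were in the strongest 10% of all recurring regions. Among the strongest 100 they numbered 17, near the 16.5% that they make up of all recurring regions.

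The strongest of all lay inside Phlpp1, a phosphatase that removes phosphate from the kinase Akt, at chr1:106199731-106199901, 27.9 kb from the 5′ end of the gene. It held 49.3, 44.0 and 38.9 normalized tags (44.1 ± 5.20, n = 3) and folds over the input of 81.1, 72.5 and 64.1. Its lowest library was above the mean of every other long-gene region. The next lay 80.3 kb into Gli3, a zinc-finger factor that carries the Hedgehog signal, at chr13:15543914-15544121, with 38.0, 31.1 and 33.2 (34.1 ± 3.54). Vti1a, which encodes a SNARE protein of vesicle fusion, held 38.5, 31.4 and 30.8 at chr19:55556418-55556604. The zinc-finger gene Zmat4 held 33.0, 33.5 and 27.7 at chr8:23964260-23964450. There the input was at its floor of 0.5 tags in all 3 libraries, and the folds were 218, 221 and 182.

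Ranked by their mean position within each library, the next regions lay in Ralgapa2, Astn2, Bcas3 and Rbms3. Ralgapa2, a subunit of an inactivating complex for Ral GTPases, held 38.3, 34.2 and 25.1 at chr2:146348102-146348278. Astn2, an astrotactin that acts in the migration of neurons along glia, held 35.5, 35.4 and 25.1 at chr4:65839619-65839798. In both, library 3 was clearly below the other two. Bcas3 held 31.7, 30.8 and 25.3 at chr11:85678715-85678900, and Rbms3, an RNA-binding protein gene, held 31.9, 30.8 and 23.6 at chr9:117357164-117357363. These 2 regions show the same order of the libraries. The regions ranked 9 to 20 lay in Fat3, Asic2, Npas3, Dpyd, Slc9a9, Lsamp, Magi2, Frmd4a, Ntm, Celf2, Macf1 and Atrnl1. Their means ran from 25.1 to 30.3, and their libraries overlapped throughout, so their order among themselves is not resolved. The region in Celf2, an RNA-binding splicing regulator, was among the most uneven with 26.1, 36.0 and 20.5, and the one in Lsamp, a cell adhesion protein of the IgLON family, was among the most even with 27.8, 27.1 and 26.0.

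**Figure D1:**
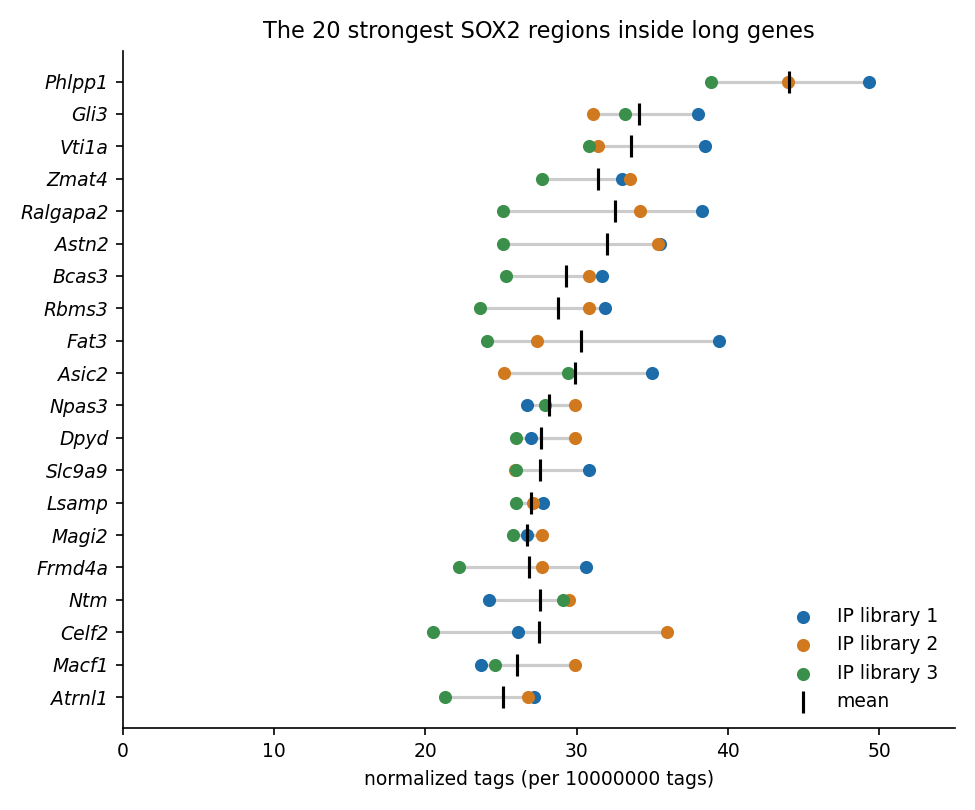
Normalized tags (per 10000000 tags, linear axis from 0) of the 20 highest-ranked regions inside long genes, 1 row per region named by its gene, with coloured points for the 3 IP libraries and a black tick for their mean. Only the Phlpp1 region, from 38.9 to 49.3, stands clear of the next row, while neighbouring rows below it overlap.

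Long-gene regions were spread over the whole of their genes. The distance from a region's centre to the nearest gene end had a median of 91.1 kb and reached 990 kb, with 1123 regions (72.9%) over 50 kb and 695 (45.1%) over 100 kb from every end. For 1168 regions in genes of known strand, the median position was 52.2% of the way from the 5′ end, and 560 (47.9%) lay in the 5′ 50%. When the genes were cut into 10 equal parts, each held between 107 and 133 of those regions (9.16% to 11.4%). Regions 1 to 5 kb from an end numbered 46, with median tags of 7.16, 6.62 and 5.85 in libraries 1, 2 and 3. The 127 regions at 5 to 20 kb had medians of 8.81, 8.31 and 6.93, the 244 at 20 to 50 kb 7.71, 7.39 and 6.45, the 428 at 50 to 100 kb 8.53, 8.31 and 7.16, and the 695 beyond 100 kb 8.53, 8.31 and 6.93. Strength thus showed no steady trend with distance. Between neighbouring regions of the same gene the median gap was 49.3 kb, and 70 of 952 gaps were at most 5 kb.

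How strength compares with other positions was asked of 4 other sets of recurring regions: 2617 inside shorter genes, 1847 at gene ends, 1749 outside genes within 50 kb, and 1581 farther away. The median of long-gene regions was 8.26, 8.00 and 6.93 normalized tags in libraries 1, 2 and 3. At gene ends, which include the promoters, it was 7.43, 7.69 and 6.45, so long-gene regions were higher in all 3 libraries, by a ratio of 1.08 ± 0.0357 (SD, n = 3). Their fold over the input, with medians of 15.4, 15.2 and 12.6, exceeded that of gene ends by a ratio of 1.15 ± 0.0377. For the fold over the surrounding 10 kb the ratio to gene ends was 1.04, 0.986 and 1.01 in the 3 libraries (mean 1.01 ± 0.0287), with no common direction (exact test, p = 0.75). Regions far from genes were slightly stronger, with medians of 8.53, 8.31 and 7.16, and the ratio of long-gene regions to them was 0.966 ± 0.00314. This small difference turned round when only peaks of at least 8-fold were used (0.0278 on the log2 scale) and was 0 when peaks had to share 0.5 of both lengths. The same local fold had a ratio to far regions of 0.907 ± 0.0144. Apart from the local fold against gene ends, each of these differences had the same sign in 3 of 3 libraries. For those the exact two-sided sign-flip test over 3 libraries gave p = 0.25, the smallest that this design allows, and 0.444 after Benjamini-Hochberg adjustment over 16 comparisons, so none could pass a threshold of 0.05. Against regions inside shorter genes the tag ratio was 0.988 ± 0.0215 and the exact test gave p = 1.

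**Figure D2:**
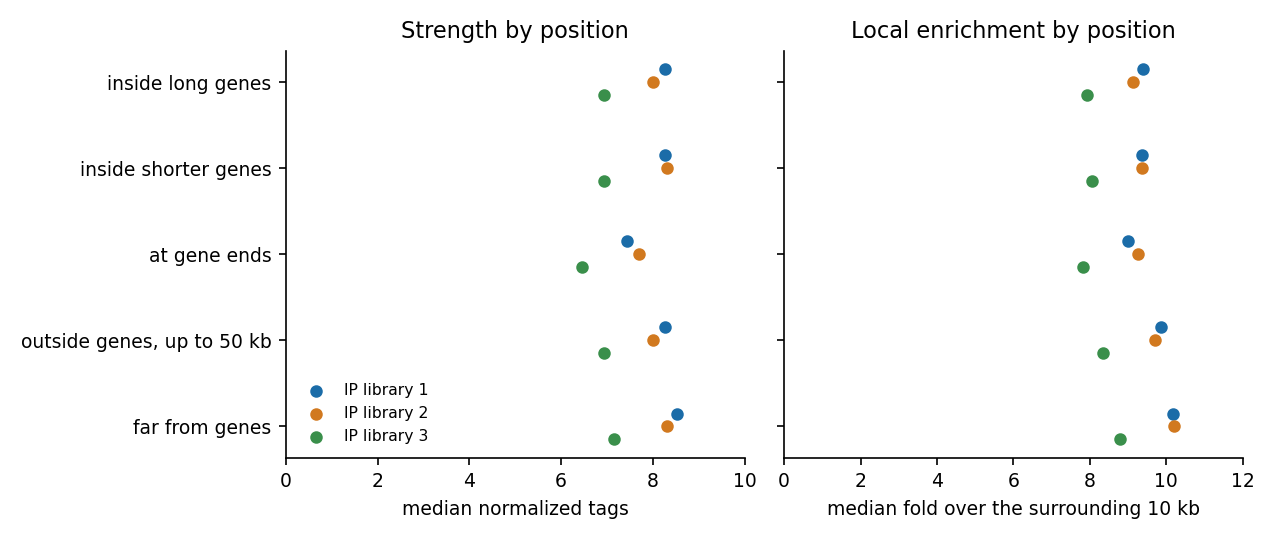
Medians over recurring regions by position, with 1 point per IP library: normalized tags per 10000000 tags (left) and fold over the surrounding 10 kb (right), both axes from 0. The spread between libraries (6.93 to 8.26 tags inside long genes) is wider than any difference between positions, and within each library gene ends are the lowest in tags and far regions the highest or level with the highest.

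Long genes did not hold more recurring regions than their length would give in shorter genes. There were 3.69 regions per Mb of long-gene interior (417 Mb, without the 1 kb around gene ends), against 4.58 per Mb in the interior of shorter genes (571 Mb). Among long genes the density was lower the longer the genes. Genes of 200 to 300 kb held 4.42 per Mb, those of 300 to 500 kb 4.28, those of 500 to 1000 kb 3.27, and those of 1000 kb or more 2.08. The share of genes holding at least 1 region went the other way, from 50.6% (219 of 433) and 62.7% (207 of 330) to 68.5% (115 of 168) and 79.7% (47 of 59), around 59.4% for all long genes. Just on each side of the length limit, Pbx3, 200.589 kb long, held a region of 11.8 ± 2.31 tags, and Sergef, at 199.738 kb left out, one of 6.57 ± 1.68. At the limit for gene ends, a region 1062 bp from an end of Tcf4 (15.7 ± 3.76) was kept and one 991 bp from an end of Nf1 (11.3 ± 2.00) was not.

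Long genes on the X chromosome held far fewer regions. Only 11 of 45 had one, with 18 regions in all or 0.896 per Mb, against 577 of 945 genes and 3.77 per Mb on autosomes, where single chromosomes ran from 2.36 per Mb (chromosome 10) to 5.54 (chromosome 9). Those 18 regions also had lower median tags, 7.16, 6.77 and 6.33 against 8.26, 8.00 and 6.93. The interior of shorter genes showed the same order, with 1.34 per Mb on X and 4.74 on autosomes. The mice were male and carry a single X per cell, and the median input in the X-linked long-gene regions was 1 tag against 2 on autosomes. The part of this lower copy number in the lower density was not tested.

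Many of the regions lay in a minority of genes, counted without regard to gene length. Of the 588 genes, 234 held 1 region and 143 held 2, while 92 genes with 5 or more held 620 regions (40.3%) and 12 genes with 10 or more held 141. Regions of the same gene share its copy number and surrounding chromatin and are not replicates of each other. The other 402 long genes held none, of which 224 had a region of 1 or 2 libraries and 178 had no peak at all away from the ends.

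**Figure D3:**
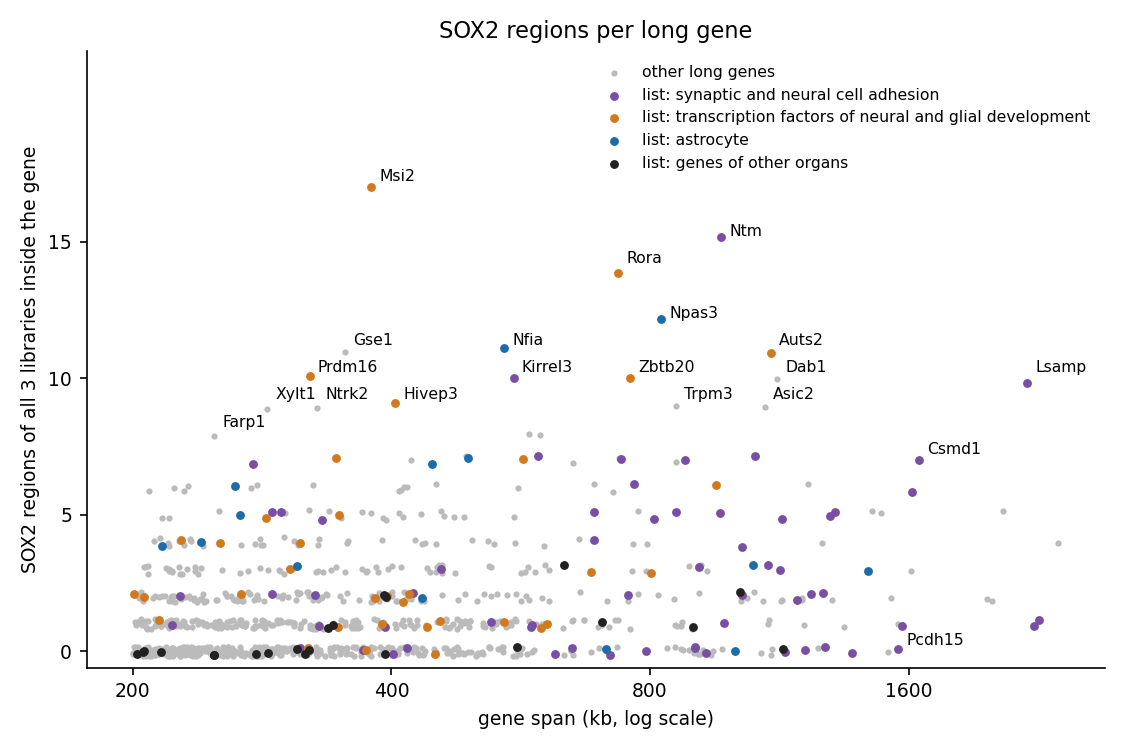
Number of recurring SOX2 regions inside each of the 990 long genes against the gene's span in kb (log axis), 1 point per gene with a small vertical offset so that points can be told apart. Colours mark 4 gene lists. Msi2, with 17 regions in 379 kb, and Farp1, with 8 in 249 kb, lie high for their length, and Pcdh15 holds none in 1554 kb.

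Msi2, which encodes the RNA-binding protein Musashi 2 of neural progenitors, held the most, 17 regions in 379 kb or 44.9 per Mb, the densest of all long genes. Of its 33 regions found in any library, 17 were found in all 3. The strongest, 133 kb from the 5′ end, held 24.8, 19.7 and 20.8 normalized tags. Another, 246 kb in, held 21.2, 22.8 and 18.4, and the region 88.4 kb in held 21.2, 16.0 and 20.3. These 3 overlapped in their libraries. One near the 3′ end, 361 kb in, held 20.4, 20.0 and 12.4, and the other 13 had means from 4.83 to 12.8.

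Prdm16 held 10 regions in 321 kb (31.1 per Mb), and their median of 13.6 tags was the highest among the 12 genes with 10 or more, beside 7.82 for all long-gene regions. The strongest held 25.3, 24.0 and 17.9, 243 kb from the 5′ end, followed by the region at Gm52688 whose sequence stands above. Nfia, a nuclear factor I gene needed for gliogenesis, held 11 in 541 kb, with 14.0, 18.5 and 13.4 in the strongest and a median of 10.2. Zbtb20, a zinc-finger repressor made by hippocampal neurons and astrocytes, held 10 in 759 kb. Of these, 7 lay in the last part of the gene, from 587 kb onward, among them one 748 kb in that held 19.3, 20.9 and 19.8. Gse1 held 11 in 353 kb (31.2 per Mb), all between 154 and 331 kb from the 5′ end, and none above 10.97 tags.

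Rora, a nuclear receptor gene, held 14 regions in 735 kb, from 5.23 to 14.4 tags, so that it was rich in regions of middling strength. In Npas3, a transcription factor gene of neural development, 11 of 12 regions had means between 3.99 and 11.3. The remaining one, 734 kb in, held 26.7, 29.9 and 27.9, and its lowest library lay above every value of the others. Ntm, which encodes the adhesion protein neurotrimin, showed the same contrast: 14 of its 15 regions had means from 4.28 to 13.9 and one, 156 kb in, held 24.2, 29.5 and 29.1. In Lsamp, 2197 kb long, 10 regions of all 3 libraries stood among 43 found in any, a share of 23.3%. Auts2, a gene of neuronal development, held 11 in 1106 kb, and its strongest held 14.3, 15.7 and 14.8.

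Dab1, the adaptor that carries the reelin signal, held 10 in 1125 kb. Of these, 8 lay beyond 650 kb from the 5′ end, among them one with nearly equal values of 17.1, 17.2 and 17.2. Kirrel3, an immunoglobulin adhesion protein gene, held 10 in 555 kb with a strongest mean of 14.1. Several neighbours were close: regions at 71.8 and 73.4 kb in Msi2, at 128 and 130 kb in Ntm, at 294 and 297 kb in Nfia, and at 648 and 650 kb in Rora.

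**Figure D4:**
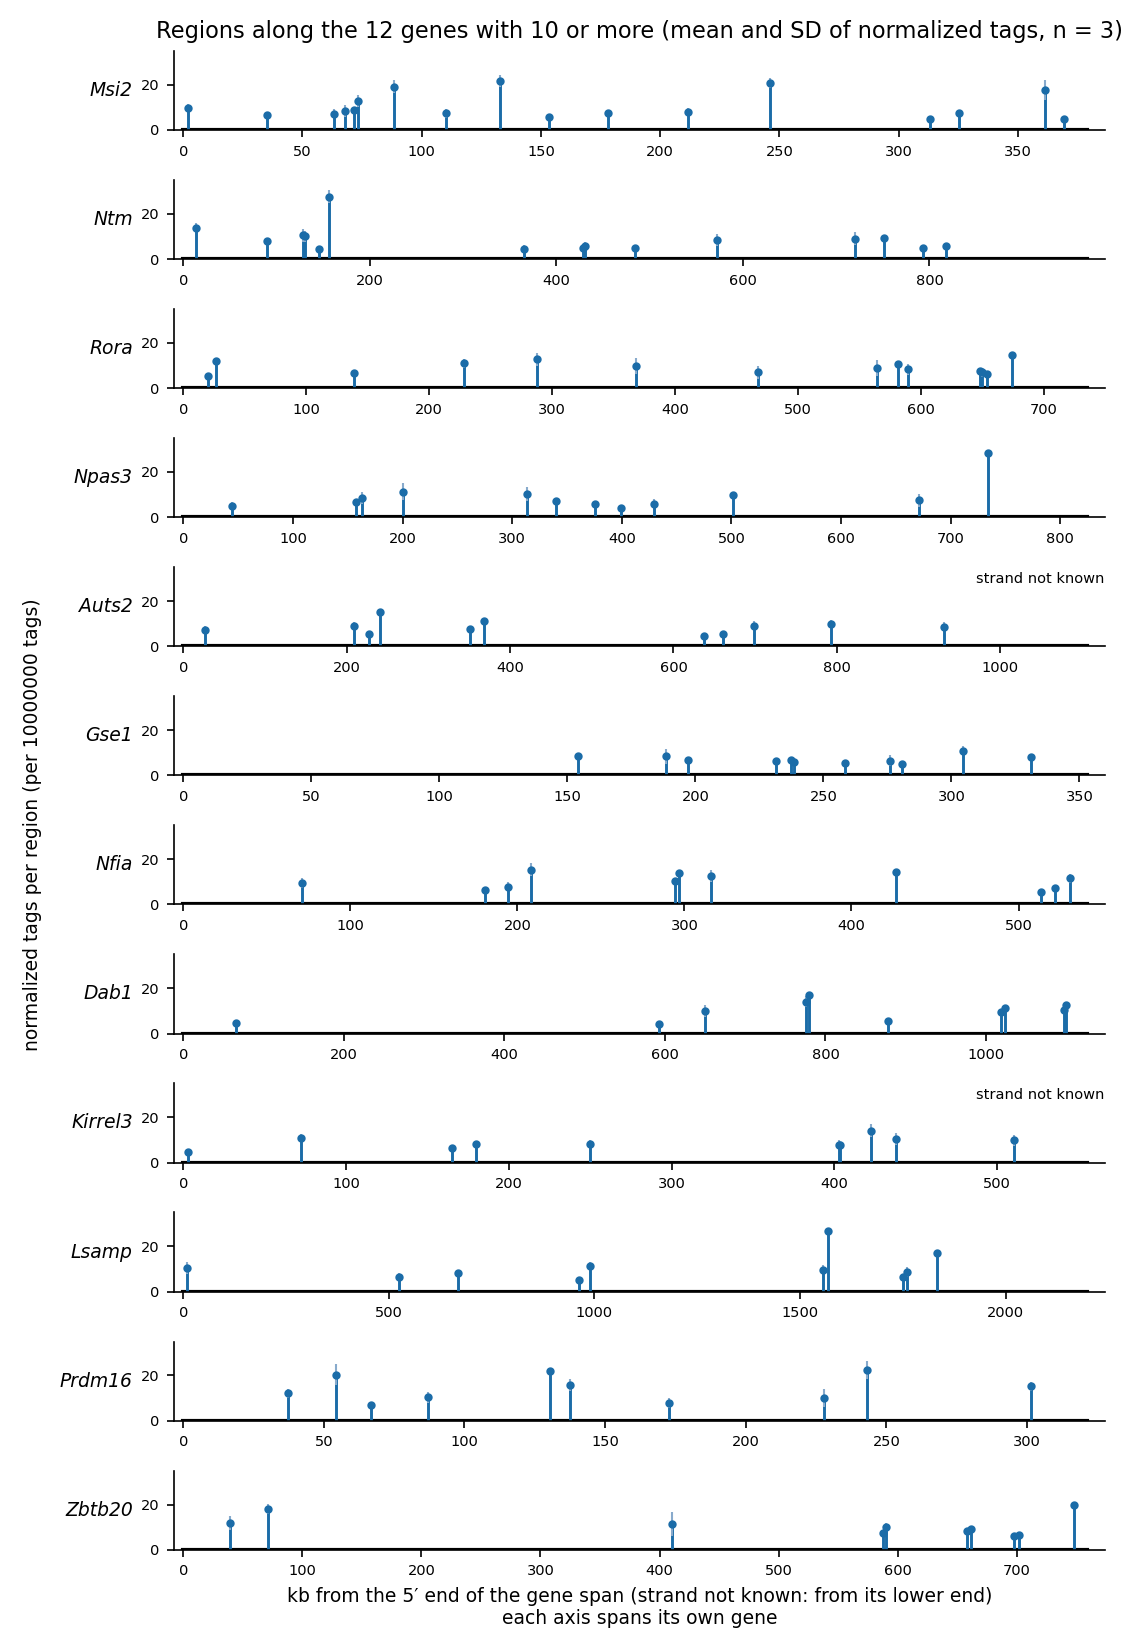
Recurring SOX2 regions along the 12 long genes with 10 or more, each axis running over its own gene from the 5′ end in kb (from the lower end for Auts2 and Kirrel3, whose strand is not in the table). Stem heights are mean normalized tags per 10000000 tags with SD bars (n = 3), and Npas3, Ntm and Lsamp each show 1 stem far above the rest, at 28.2, 27.6 and 27.0.

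Densities above 25 per Mb were also seen in Farp1 (8 regions, 32.2 per Mb), Xylt1 (9, 31.4), Zmiz1 (6, 28.7), Ntrk2 (9, 27.5), Sash1 (6, 26.9), Srgap3 (6, 26.1), Tjp1 (6, 25.9) and Nrcam (7, 25.3). Ntrk2 encodes TrkB, the receptor of brain-derived neurotrophic factor, and its strongest region held 20.1, 27.1 and 17.9 tags. Srgap3, a regulator of small GTPases in the Slit and Robo pathway, held 23.7, 22.2 and 22.4 in its strongest, with libraries close together. Nrcam, a neural adhesion protein gene, had a strongest mean of 24.4. At the other end, the longest genes with none were Pcdh15 (1554 kb, 4 regions in 1 or 2 libraries), Dpp10 (1514 kb, no peak), the X-linked Il1rapl1 and Il1rapl2, Lingo2, Csmd3 and Cdh12.

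**Figure D5:**
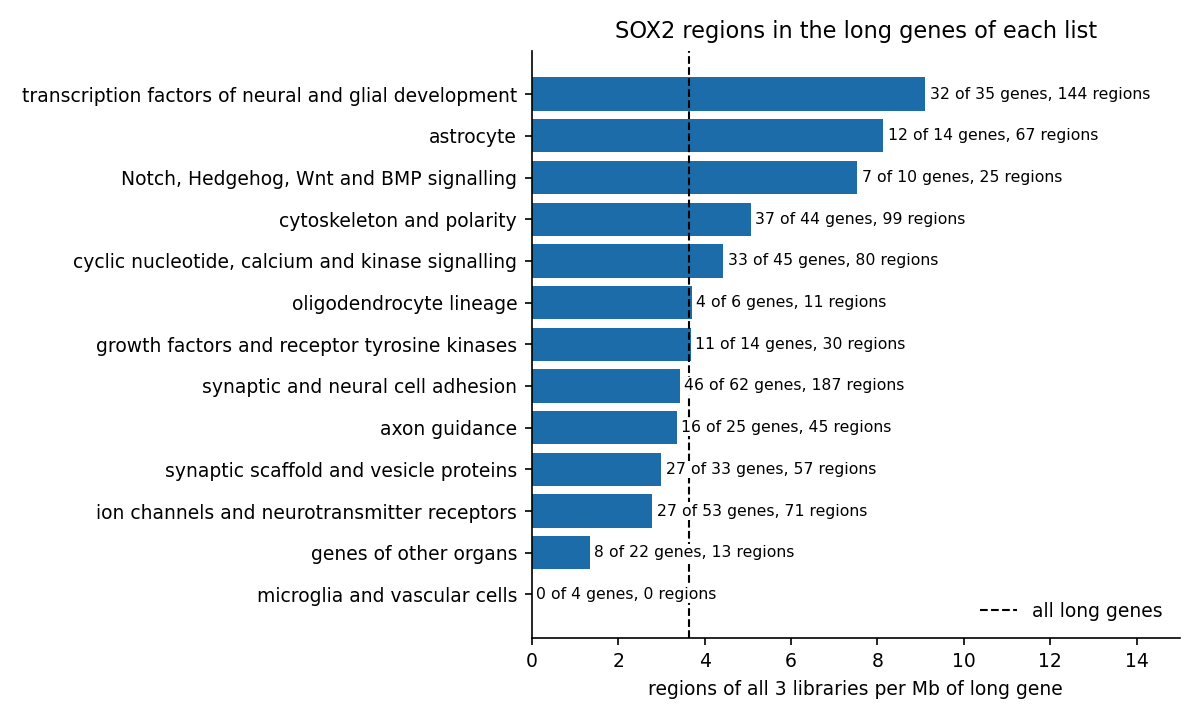
Recurring SOX2 regions per Mb of gene span for the long genes of 13 gene lists (bars from 0), with the number of genes holding a region and the number of regions beside each bar. The dashed line marks all long genes, 3.63 per Mb. The bars run from 0 for the 4 long genes of microglia and vascular cells to 9.11 for the transcription factor list.

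By function, regions were compared as counts per Mb of gene span, with 3.63 for all long genes together, a median gene of 2.27 and 59.4% of genes holding a region. These are descriptions without a test. The lists were chosen with earlier results of these data known, so their values are not independent of that choice. Transcription factors of neural and glial development had 144 regions in 32 of 35 long genes (91.4%), or 9.11 per Mb with a median gene of 6.29. Besides Msi2, Rora, Auts2, Prdm16 and Zbtb20, the list took in Hivep3 (9), Sox6 (7), Tcf4 (7) and Sox5 (6), and only Cux1, St18 and Zfpm2 held none. Not every gene of this list encodes a transcription factor. Msi2 binds RNA, and its 17 regions count in the list's 144, as do the 11 of Auts2. Sox5 and Sox6 belong to the SOX family themselves, and the strongest region of Sox5 held 16.8, 20.6 and 18.6.

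Genes of the astrocyte list held 67 regions in 12 of 14 long genes (85.7%), or 8.14 per Mb with a median gene of 14.4. Their median strength, 9.63, 9.54 and 7.64 in libraries 1, 2 and 3, stood beside 8.26, 8.00 and 6.93 for all long-gene regions. Npas3 (12) and Nfia (11) led, followed by Slc4a4, a bicarbonate transporter (7), Gabrb1, a GABA receptor subunit (7), and Pitpnc1 (6). The long Gpc5 and Gpc6 held 3 each, at 2.09 and 2.84 per Mb, below the 3.63 of all long genes. Npas3, Nfia, Gli3 (5) and Nfib (4) are transcription factor genes that were counted here and not in the transcription factor list. In strength the list was led by the Gli3 region described above (38.0, 31.1 and 33.2), with Npas3 next. The strongest region of Pitpnc1, a lipid transfer protein gene, held 23.7, 21.2 and 20.8. That of Nfib, the partner of Nfia in glial development, held 21.2, 20.9 and 19.1 with the input at its floor in all 3 libraries. Mgat4c and Pard3b held none.

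Long genes of Notch, Hedgehog, Wnt and BMP signalling held 25 regions in 7 of 10 genes, or 7.54 per Mb. Maml2, a coactivator of Notch, held 28.1, 21.5 and 25.6 in its strongest, and Gli2, a Hedgehog effector, 21.5, 20.3 and 18.6. Gli3, whose strongest region is described above, was counted in the astrocyte list and not in this one. Cytoskeleton and polarity genes had 99 in 37 of 44 (5.08 per Mb), led in number by Ank2 (8), and in strength by Macf1, which links actin and microtubules (23.7, 29.9 and 24.6). Kinase and second-messenger genes had 80 in 33 of 45 (4.44 per Mb). Among them were Phlpp1 and Rgs7, a regulator of G-protein signalling, with 21.7, 29.5 and 21.0 and the input at its floor in all 3 libraries.

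In regions per Mb, lists of neuronal function were near or below the value of all long genes, 3.63. Gene length was not matched, and density fell with gene span. The share of genes holding a region was above the 59.4% of all long genes in adhesion, scaffold (81.8%), growth factor (78.6%) and axon guidance (64.0%) genes. Median genes ran from 1.16 per Mb (ion channels and receptors) to 2.88 (adhesion), beside 2.27. Adhesion genes held the most regions of any list, 187 in 46 of 62 genes (74.2%), but over 54.6 Mb, which makes 3.43 per Mb. Within it Ntm had 15 regions and the 2271 kb Ptprd and the 2241 kb Cntnap2 1 each. Axon guidance genes had 45 in 16 of 25 (3.36 per Mb), with Dab1 and Srgap3 ahead, and growth factor and receptor kinase genes 30 in 11 of 14 (3.68 per Mb), with Ntrk2 and Alk ahead. Synaptic scaffold and vesicle genes had 57 in 27 of 33 (3.00 per Mb), the strongest in Magi2 with 26.7, 27.7 and 25.8. Ion channel and receptor genes had 71 in 27 of 53 (50.9%), or 2.79 per Mb, and 9 of those were in Trpm3, a cation channel gene. The calcium channel gene Cacna1c held 22.8, 21.9 and 17.0 in its strongest, with folds over the input of 75.3, 14.4 and 11.2 beside an input of 1 tag in library 1 and 4.9 and 5.0 in libraries 2 and 3.

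Markers of other cells in the tissue gave few long genes. Oligodendrocyte lineage genes had 11 regions in 4 of 6 (3.71 per Mb), led by Tnr, an extracellular matrix glycoprotein gene, with 20.6, 19.1 and 13.9. Their median tags, 9.91, 8.31 and 9.07, were above those of all long-gene regions in each library, as were those of the astrocyte list. Of these 11 regions, 3 lay in Opcml, which also stands in the adhesion list. The 4 long genes of microglia and vascular cells, Mecom, Cped1, Erg and Runx1, held none, in 1.28 Mb. This depends on the length limit: when long meant 100 kb, 5 genes of this list held a region. Genes best known from other organs had 13 regions in 8 of 22 (36.4%), or 1.35 per Mb. The strongest there, in Nebl, held 13.2, 13.2 and 14.1, and Lama2 held 13.2, 13.8 and 12.4. The median of these 13 regions, 8.81, 8.00 and 7.64, was at or above that of all long-gene regions in each library.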

How the data were processed

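SOX2 ChIP-seq of mouse cortex gave 3 IP libraries and 1 input. Named per the submitters' processing notes are the mm10 build, Bowtie 1.0.0 and HOMER 4.7. HOMER called peaks separately in each IP library, in factor mode with the input as control, per the file headers. The headers give as the authors' limits 4-fold enrichment over both the input and the 10 kb around a peak, a p-value (Poisson) of 0.0001 and 0.001 as false discovery rate. The deposited strength is a signal, normalized tags per 10000000; the deposited fold is a ratio of IP to input, with the input floor at 0.5 tags. Tag totals were deposited as a count or scaled signal, the score is the authors' tag number after a limit per bp of 1 in libraries 1 and 2 and 2 in library 3, and the focus ratio is a deposited fraction.

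Peaks overlapping by 1 bp were merged in chains; 46 long-gene regions had no base common to all 3 libraries and 13 lay in 2 or more genes (assigned to the longest). A library's value is that of its strongest peak. Gene spans came from RefSeq (GRCm38.p6), matched by symbol; strand came from the promoter table, for 744 long genes. No genome was used here, so the planned motif search of all regions was not run; the search at internal starts and the strand positions were added later. Medians of regions were compared within libraries by an exact two-sided sign-flip test, and the merging and placing of regions was tested on simulated data. Alternatives changed overlap, peak filters, the length limit, the distance from ends and the libraries used. Named genes followed a rule: the 20 highest mean ranks with 4-fold enrichment, the 10 genes with most regions (Dab1 and Kirrel3, tied at 10, and the densest genes were added after their values were seen), the 4 strongest of each list, genes beside the length limit, and the longest genes without a region. Further members of lists were named by their number of regions, and some genes are not reported here. Regions and lists were chosen with earlier results of these data known. Python 3.11.15, numpy 2.4.6, pandas 2.3.3 and matplotlib 3.10.9 were used.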

Additional observations from a re-analysis of the deposited data

How the results depend on the processing

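The number of long-gene regions, 1540, became 899 with only peaks of at least 8-fold, 943 with the stronger 50% of peaks in each library, 2508 when long meant 100 kb and 760 when it meant 400 kb. Genes holding one went from 588 to 1127 at 100 kb and 245 at 400 kb, and regions of 8-fold enrichment in every library from 899 to 1511 and 444. Density fell from 3.69 per Mb to 2.16 with 8-fold peaks and 2.26 with the stronger peaks. These alternatives keep fewer peaks or more or fewer genes by construction. The small log2 difference to far regions, -0.05, turned to 0.0278 with 8-fold peaks and was 0 where peaks had to share 0.5 of both lengths. That to shorter genes, -0.02, turned to 0.0422 with 8-fold peaks, 0.00907 with stronger peaks and 0.00707 at 400 kb, so its direction is not settled; the cause was not tested. The difference to gene ends kept its sign under every alternative run. Leaving out 1 library in turn gave 1792 to 1952 regions and 4.30 to 4.68 per Mb, and turned no difference. For the lists, only the number of genes holding a region was recomputed: 116 such values stayed within 1.5 times and 14 moved beyond it. List densities were not recomputed. Positions were compared within each IP library. No paired analysis was possible between IP and input because the input has 1 library. Weak regions rest on few tags, beside authors' thresholds of 13 to 16, and may be missed in a library by counting noise.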

Other observations

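Members of the same gene family held very different numbers of long-gene regions. The families below were picked after their counts were seen, and no test was run. Among the IgLON adhesion proteins, Ntm held 15 and Lsamp 10, while Opcml held 3 in 1135 kb and Negr1 2 in 755 kb. Among the teneurins, transmembrane adhesion proteins of synapses, Tenm4 held 7, Tenm3 5, Tenm2 2 and the X-linked Tenm1 none. Csmd1, a complement regulator of the brain, held 7 in 1643 kb, and Csmd2 held 1 and Csmd3 none in 1212 kb. Of the contactins, Cntn1, Cntn4 and Cntn5 held 2 each and Cntn3 and Cntn6 none. Their partners of the Cntnap family had 1 region in the 2241 kb Cntnap2 and none in Cntnap4, Cntnap5a, Cntnap5b and Cntnap5c.

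Several glutamate receptor genes differed in the same way. The NMDA receptor gene Grin2b held 5 in 460 kb, against 1 in Grin2a (428 kb). The kainate receptor genes Grik1 and Grik3 held 2 each, Grik2 held 1 and Grik4 none. The 3 long AMPA receptor genes, Gria1, the X-linked Gria3 and Gria4, held none. Of the nuclear factor I genes that are long, Nfia held 11 regions in 541 kb and Nfib 4 in 217 kb.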
